A study of Mus musculus with 16 samples.

Results

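The genes of glycolysis and of glucose and lactate transport were followed in the retina of mice after spaceflight. The 40 members were chosen by gene symbol: the glucose transporters, the enzymes from hexokinase to lactate dehydrogenase, the enzymes that set the level of fructose-2,6-bisphosphate, the pyruvate dehydrogenase complex with its kinases, and the monocarboxylate transporters with their partner basigin. Of these, 38 had a row among the 25905 genes of the deposited comparison. Pkm had no row of its own because it is the current symbol of Pkm2, the pyruvate kinase of muscle and brain, which was present. Tigar had none under that symbol. The RefSeq table of assembly GRCm38.p6 gives 9630033F20Rik as its older name, and that row is described below as an addition to the rule.

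The spaceflight group was 8 male C57BL/6 wild type mice, 10 weeks old, that lived in the rodent habitats of the International Space Station for 35 days. The ground control group was 8 mice of the same strain, sex and age, kept on Earth in the same housing hardware with matched temperature and carbon dioxide and the same food. Eyes were collected 38 ± 4 hours after landing, so the retinas had been back in gravity before they were frozen. Each library held the whole right retina of 1 mouse, in which fewer cells of a type and less RNA per cell cannot be told apart.

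Glycolysis splits glucose into pyruvate in the cytosol and yields ATP and NADH without oxygen. The retina is known for running it at a very high rate and for turning most of the pyruvate into lactate even where oxygen is plentiful. Photoreceptors are the main consumers: glucose reaches them from the choroid through the pigment epithelium by GLUT1, the product of Slc2a1, hexokinase 2 traps it as glucose-6-phosphate, and lactate leaves through monocarboxylate transporters that need basigin to reach the cell surface.

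Values per mouse are not analysed here, because the columns of counts carry laboratory codes that the labels do not tie to a mouse. Each gene is therefore given by its mean normalized count over the 16 libraries (reads divided by the size factor of their library), and by its log2 fold-change with the standard error (SE), positive where spaceflight is higher, both from the deposited DESeq2 comparison. Intervals are 95% normal intervals from that SE. A gene was called a DEG under an adjusted p-value of 0.1, the threshold of the study's methods. Of the members, 32 were tested, that is, had an adjusted p-value, and they were abundant: the median tested member lay above 89.8% of all tested genes. The remaining 6 fell under the filter on abundance.

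The counts were made per RefSeq transcript, and genes with several counted transcripts had low values. Over all genes, the median mean normalized count was 12.9 for the 22086 genes with 1 counted transcript and 0.806 for the 3794 genes with several, and 45.4% and 16.7% of them were tested. HTSeq in its default setting leaves out reads that overlap more than 1 feature; the setting used is not given in the sources used here. Of the members, 8 had several counted transcripts. Ldha and Hk1 had 2 each, and mean normalized counts of 40.1 and 117. Aldoa and Pfkm had 3 each, and counts of 48.7 and 7.15. Pfkfb3, with 8 transcripts, and Slc16a3, with 3, were listed at 0. Bsg, with 2, and Pfkfb2, with 4, had counts of 559 and 1804. The part of the counting in these values was not tested, and the abundance of these 8 genes was compared with no other gene. The other 30 members, among them all 3 DEGs, had 1 counted transcript.

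The DEGs were Hk2, Pfkp and Pgk1, all higher in spaceflight. The DNA just before and after their transcription start is shown because these are the members past the threshold. Hypoxia inducible factor, a known regulator of glycolytic genes, binds the short words ACGTG and GCGTG. Whether these genes changed together in the same mice was not analysed here, and a part of this factor was not tested. The sequences are RefSeq promoters of GRCm38.p6, from 250 bases before to 50 bases after the start, written 5′ to 3′ on the strand of the gene. Capitals mark each match to ACGTG or GCGTG on either strand, where CACGT and CACGC are their reverse complements.
Hk2: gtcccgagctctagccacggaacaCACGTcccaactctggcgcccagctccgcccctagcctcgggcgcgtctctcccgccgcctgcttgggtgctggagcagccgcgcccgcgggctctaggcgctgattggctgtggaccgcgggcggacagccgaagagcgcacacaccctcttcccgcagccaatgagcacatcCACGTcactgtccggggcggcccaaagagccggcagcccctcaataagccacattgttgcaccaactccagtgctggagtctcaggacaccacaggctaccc
Pfkp: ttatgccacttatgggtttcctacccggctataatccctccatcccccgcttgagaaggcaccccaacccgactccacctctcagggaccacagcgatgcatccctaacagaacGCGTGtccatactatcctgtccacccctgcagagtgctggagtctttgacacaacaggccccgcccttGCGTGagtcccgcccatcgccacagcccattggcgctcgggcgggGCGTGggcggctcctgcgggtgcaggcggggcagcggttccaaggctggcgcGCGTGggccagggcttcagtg
Pgk1: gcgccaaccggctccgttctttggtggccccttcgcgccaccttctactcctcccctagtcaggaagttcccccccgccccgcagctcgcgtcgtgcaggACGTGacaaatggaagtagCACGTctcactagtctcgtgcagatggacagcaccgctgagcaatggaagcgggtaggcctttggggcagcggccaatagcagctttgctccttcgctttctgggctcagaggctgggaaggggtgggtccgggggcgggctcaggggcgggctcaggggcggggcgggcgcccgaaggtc

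The promoter of Hk2 (chr6:82774405-82774704, minus strand) held 2 matches, that of Pfkp (chr13:6648722-6649021, minus strand) held 4, and that of Pgk1 (chrX:106186850-106187149, plus strand) held 2. Such words are common. A match was found in 43.8% of all 32851 promoters in the table, and in 62.6% of the 8965 promoters of tested genes. Of the 41 promoters found for 29 of the tested members, 29 held a match, which is 70.7%. Of the 26 tested members with a promoter that were not DEGs, 15 had a promoter with 2 or more matches, up to 7 for Ldha, 4 had 1 match at most, and 7 had none, among them Gpi1, Tpi1 and Eno2. In all promoters of the table, 20.6% held 2 or more matches. That share is per promoter, while the count of members takes the promoter with the most matches of each gene. It was not taken for tested genes alone, whose promoters held a match more often (62.6% against 43.8%). The 20.6% is therefore no background for the members. The longer word CACGTG, which the ACGTG search counts once on each strand, was in none of the 3 promoters shown and in 7.15% of all promoters. A match is a description of the letters and does not show that a factor binds there.

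Among the tested members, 3 of 32 were DEGs (9.38%), all of them higher in spaceflight, where 5.62% of all 10669 tested genes were DEGs in either direction and 2.68% were DEGs higher in spaceflight. The share of members called is thus not far from the background, and it rests on 3 genes. The log2 fold-change was positive for 23 members and negative for 9, with a median of 0.04. Over all tested genes it was positive for 47.8%, with a median of -0.0059. Taken without its sign, the log2 fold-change had a median of 0.077 among the members and 0.077 among all tested genes. The median SE was 0.066 for the members and 0.084 for all tested genes. Values without their sign grow with the SE, so these equal medians do not show that the changes were alike in size. Members lie in 1 set of libraries and share their errors, so the count of signs carries no test.

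**Figure D1:**
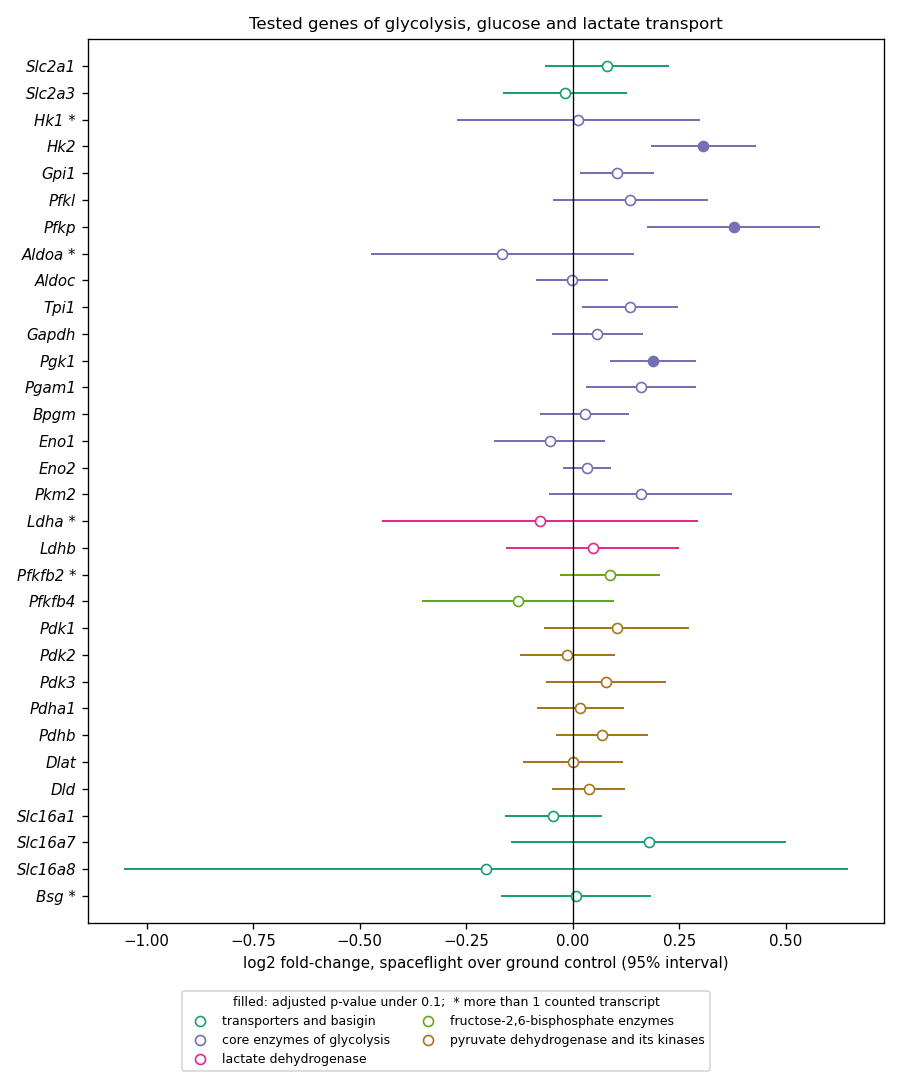
Log2 fold-change, spaceflight relative to ground control (x axis), for the 32 tested members, in the order of the pathway, with bars for the 95% interval and colours for the part of the pathway. The filled points of Hk2, Pfkp and Pgk1 are the DEGs, and the intervals of all transporters, lactate dehydrogenases and pyruvate dehydrogenase genes hold 0.

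The 3 DEGs were all enzymes of the steps from hexokinase to pyruvate kinase. Of 15 tested enzymes of these steps, 3 were DEGs and 12 had a positive log2 fold-change, with a median of 0.10 and a range of -0.17 to 0.38. Of all tested genes, 5.62% were DEGs, 2.68% were DEGs higher in spaceflight and 47.8% had a positive log2 fold-change. In 6 of them the 95% interval left out 0, and all 6 were higher in spaceflight. An unadjusted p-value under 0.05, in either direction, was found for 14.8% of the tested genes, a background against which none among a few genes is no result.

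Hexokinase 2, the enzyme that commits glucose to the photoreceptor cell by phosphorylating it, changed most clearly. The mean normalized count of Hk2 was 7565, above 99.4% of tested genes. Its log2 fold-change was 0.31 ± 0.06 (SE), a rise of 23.7% with an interval of 13.5 to 34.8% (DESeq2, adjusted p-value = 0.000188). It was the only member past an adjusted p-value of 0.01. The call ended when the change had to exceed 1.1-fold (adjusted p-value = 0.923 from the DESeq2 estimates). That value is adjusted over all tested genes, while the interval of Hk2 taken alone, which is not adjusted, lies above a 1.1-fold rise.

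The other hexokinase among the members, Hk1, is the form found in most tissues. It gave a mean normalized count of 117 from 2 counted transcripts and a log2 fold-change of 0.01 ± 0.15, with an interval of -0.27 to 0.30. The difference between the isoforms, Hk1 minus Hk2, was -0.29, and its interval of -0.60 to 0.02 holds 0.

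Gpi1, the isomerase that turns glucose-6-phosphate into fructose-6-phosphate, had a mean normalized count of 7204 and a log2 fold-change of 0.10 ± 0.04. Its interval of 0.02 to 0.19 left out 0, but it did not pass the threshold (DESeq2, adjusted p-value = 0.214).

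Phosphofructokinase makes the first step that belongs to glycolysis alone, and mammals have a liver form, a muscle form and a platelet form. The platelet form was the DEG. Pfkp had a mean normalized count of 4759 and a log2 fold-change of 0.38 ± 0.10, the largest of all tested members, which is a rise of 29.9% with an interval of 12.9 to 49.6% (DESeq2, adjusted p-value = 0.0123). The call ended with the Wald statistics divided by their central spread over all genes, and when the change had to exceed 1.1-fold. The liver form, Pfkl, had a count of 3816 and a log2 fold-change of 0.14 ± 0.09, which did not pass (DESeq2, adjusted p-value = 0.548), with an interval of -0.05 to 0.32.

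The liver and platelet forms were not shown to differ in their change. Pfkl minus Pfkp was -0.24, with an interval of -0.52 to 0.03. Their abundance per kb of transcript was close, 1148 for Pfkp and 1023 for Pfkl, and this order depends on the transcript: with the longest annotated transcript Pfkp came to 548 per kb. The muscle form, Pfkm, had a mean normalized count of 7.15 over 3 counted transcripts and was not tested, so neither its level nor its change can be set beside the other two. The markers of skeletal muscle were near 0 in these retinas: 8 genes, among them Ckm and Acta1, summed to 29.6, and none was tested. Of these markers, Myl1 and Tnnt3 had several counted transcripts, and such genes had low values.

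The aldolases split fructose-1,6-bisphosphate. Aldoc, the brain form, also known as a marker of glia, had a mean normalized count of 3355 and the log2 fold-change nearest to 0 among these enzymes, -0.0023 ± 0.04. The interval of -0.09 to 0.08 leaves room for a change of at most 5.81% upward. Aldoa, with 3 counted transcripts, had a log2 fold-change of -0.17 ± 0.16.

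The lower part of glycolysis held the third DEG. Pgk1, the X-linked phosphoglycerate kinase that makes the first ATP of the payoff phase, had a mean normalized count of 4593 and a log2 fold-change of 0.19 ± 0.05, a rise of 13.9% with an interval of 6.26 to 22.2% (DESeq2, adjusted p-value = 0.0114). This call ended under the same alternatives as that of Pfkp. Its neighbours in the pathway did not pass the threshold. Tpi1, the triose phosphate isomerase, was at 0.13 ± 0.06 (DESeq2, adjusted p-value = 0.211). Pgam1, the phosphoglycerate mutase, was at 0.16 ± 0.07 (DESeq2, adjusted p-value = 0.180). For both, the interval left out 0, while that of Gapdh, the enzyme just before Pgk1, held it.

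Gapdh, the dehydrogenase that makes the NADH of glycolysis and a common reference gene, was the most abundant member at 30899. Its log2 fold-change was 0.06 ± 0.05, with an interval of -0.05 to 0.16. Bpgm, which makes 2,3-bisphosphoglycerate and is best known from red blood cells, had a count of 545 and a log2 fold-change of 0.03 ± 0.05. Red blood cell markers were near 0, with 6 genes that summed to 12.9, of which none was tested. Alas2 was listed at 0, but it had 2 counted transcripts, and such genes had low values. The globin genes among them have near-identical copies that share reads.

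Enolase turns 2-phosphoglycerate into phosphoenolpyruvate. Eno1, the form of most cells, was 4.51 times as abundant per kb as Eno2, the form of neurons. Eno1 had a log2 fold-change of -0.05 ± 0.07 and Eno2 of 0.03 ± 0.03, the most precise value of any member. Neither passed, and Eno1 minus Eno2 was -0.09, with an interval of -0.23 to 0.05.

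Pyruvate kinase makes pyruvate and the last ATP. Pkm2 had the second highest mean normalized count of the members, 24063, and a log2 fold-change of 0.16 ± 0.11, with an interval of -0.06 to 0.37. Pkm2 had 1 counted transcript, so the splice forms M1 and M2 were not told apart and a shift between them was not analysed here. Gapdh, Pgk1, Eno1, Pgam1, Tpi1, Aldoa and Ldha have processed pseudogene copies in the mouse genome, and how reads that fit several copies were placed is not given in the sources used here.

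Precision differed among members in a way that abundance did not set. The SE of 7 members was over 1.5 times the median SE of the 200 tested genes nearest in mean normalized count. It was 2.40 times for Pkm2, 2.33 for Pfkp, 2.24 for Slc16a8, 2.16 for Ldhb, 2.11 for Pfkl, 1.64 for Slc2a1 and 1.56 for Bsg. Pkm2 was more abundant than 99.8% of tested genes, yet a rise of 11.7% did not pass the threshold. For Eno2, with a count of 3431, the whole interval spanned -1.56 to 6.33%.

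**Figure D2:**
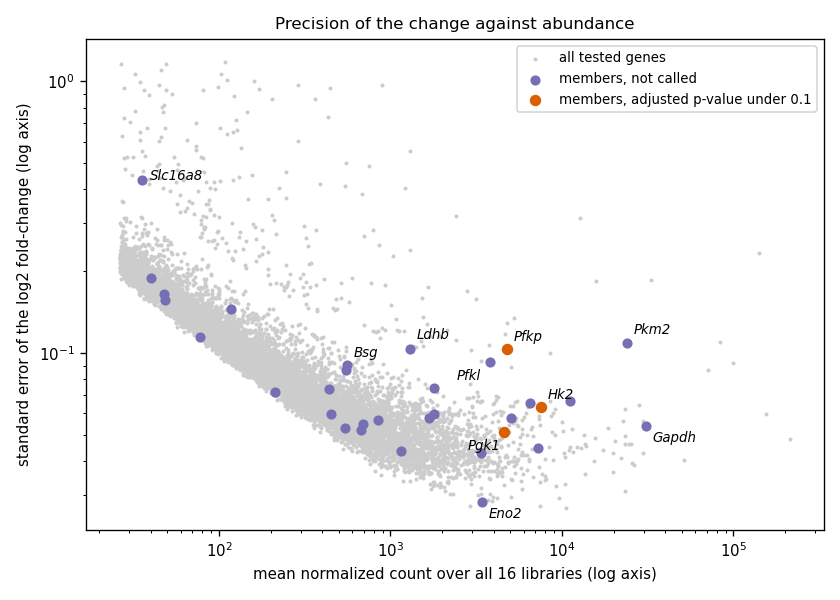
Standard error of the log2 fold-change against the mean normalized count, both on log axes, for all 10669 tested genes in grey and the 32 tested members in colour. Pfkp, Pfkl, Pkm2 and Ldhb lie above the band of genes of like abundance, with SEs of 2.11 to 2.40 times those of such genes.

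Lactate dehydrogenase joins pyruvate and lactate, with Ldha favouring lactate in tissues that ferment and Ldhb common in oxidative cells. Neither was a DEG in DESeq2, and neither had an unadjusted p-value under 0.05. Ldhb had a mean normalized count of 1297 and a log2 fold-change of 0.05 ± 0.10, with an interval of -0.16 to 0.25. Ldha, known as the main lactate dehydrogenase of photoreceptors, was left with a count of 40.1 from 2 counted transcripts. Its log2 fold-change of -0.08 ± 0.19 has an interval of -0.45 to 0.29, which is too wide to tell a rise of the size of Pgk1's from none.

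Fructose-2,6-bisphosphate switches phosphofructokinase on, and the PFKFB enzymes both make and break it. Of the 4 PFKFB genes 2 were tested and none passed in DESeq2, with none under an unadjusted p-value of 0.05. Pfkfb2, with 4 counted transcripts, had a count of 1804 and a log2 fold-change of 0.09 ± 0.06. Pfkfb4 had a count of 77.2 and a log2 fold-change of -0.13 ± 0.12, and Pfkfb2 minus Pfkfb4 was 0.22, with an interval of -0.04 to 0.47. Pfkfb1 had a count of 8.78 and was not tested, and Pfkfb3 was listed at 0 over 8 transcripts. The row of 9630033F20Rik, for the phosphatase TIGAR that lowers the same metabolite, had a count of 424 and a log2 fold-change of 0.11 ± 0.06 (DESeq2, adjusted p-value = 0.371).

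Pyruvate dehydrogenase carries pyruvate into the mitochondrial cycle, and its 4 kinases switch it off. Of the 7 tested genes of the complex and its kinases, none passed the threshold in DESeq2 and none had an unadjusted p-value under 0.05, with log2 fold-changes from -0.01 to 0.10. Among the kinases Pdk2 was the most abundant, at 376 per kb, which is 3.55 times Pdk1 and 3.73 times Pdk3. Pdk1, a known target of hypoxia inducible factor, was at 0.10 ± 0.09, Pdk3 at 0.08 ± 0.07 and Pdk2 at -0.01 ± 0.06. Pdk4, known from fasting muscle and heart, had a count of 5.93 and was not tested. The catalytic subunits Pdha1 and Pdhb were at 0.02 ± 0.05 and 0.07 ± 0.05, the acetyltransferase Dlat at 0.00058 ± 0.06 and the dihydrolipoamide dehydrogenase Dld at 0.04 ± 0.04.

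**Figure D3:**
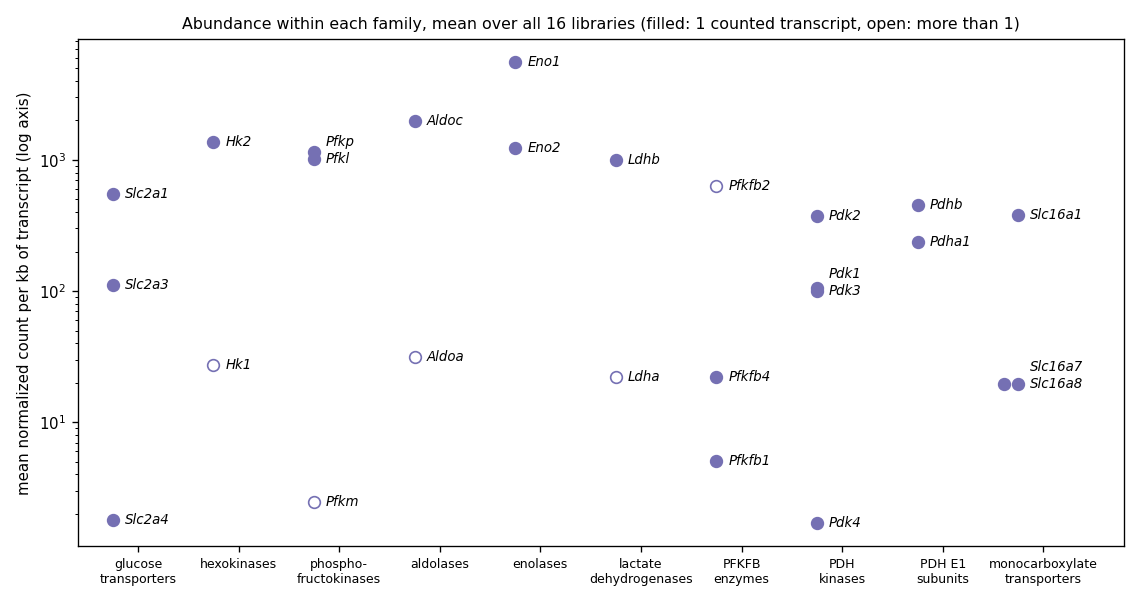
Mean normalized count per kb of transcript over all 16 libraries, on a log axis, for the members of each isoform family. Filled points are genes with 1 counted transcript, and open points are genes with several, among them Hk1, Pfkm, Aldoa and Ldha; Pfkfb3 and Slc16a3 are listed at 0 and not drawn.

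The transporters gave no DEG. Of the 6 tested transport genes, none passed in DESeq2 and none had an unadjusted p-value under 0.05, with 3 positive and 3 negative log2 fold-changes. Slc2a1, which encodes GLUT1, had a count of 1802 and a log2 fold-change of 0.08 ± 0.07, with an interval of -0.07 to 0.23. Slc2a3, the neuronal transporter GLUT3, was at -0.02 ± 0.07, and Slc2a1 was 4.98 times as abundant per kb, or 7.87 times with the longest transcript of Slc2a3. Slc2a4, the insulin-regulated GLUT4, had a count of 4.55 and was not tested.

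Slc16a1, which encodes MCT1, was the most abundant of the lactate transporters with 1 counted transcript, with 380 per kb against 19.7 for Slc16a7 (4.34 with its longest transcript) and for Slc16a8. Slc16a3, which encodes MCT4 and had 3 counted transcripts, was listed at 0 and not ranked. The log2 fold-change of Slc16a1 was -0.05 ± 0.06, with an interval of -0.16 to 0.07. Slc16a7, or MCT2, was at 0.18 ± 0.17. Bsg, which encodes basigin, had a count of 559 from 2 counted transcripts and a log2 fold-change of 0.0075 ± 0.09.

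Slc16a8 encodes MCT3, which is known from the pigment epithelium, a tissue outside the neural retina. It had a count of 35.6 and a log2 fold-change of -0.20 ± 0.43, the widest interval of any tested member, -1.05 to 0.65. The markers of the pigment epithelium were measured in the same libraries: 8 of the 9 listed had a row and 7 were tested, with SEs from 0.41 to 1.06 on the log2 scale and log2 fold-changes from -0.61 to 0.31. None was a DEG in DESeq2 and none had an unadjusted p-value under 0.05. Their part in the value of Slc16a8 was not tested. Endothelial cells also carry GLUT1, and of 7 tested endothelial markers none was a DEG in DESeq2, while 1, Cdh5, had an unadjusted p-value under 0.05 with a log2 fold-change of -0.28.

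Within families, 14 pairs in 10 families could be compared, all of them isoforms except Pdha1 and Pdhb, which are different subunits, and the 95% interval of the difference held 0 in all 14. These intervals take both estimates as independent, although they come from the same libraries. They are wide: the difference for the hexokinases reaches -0.60 and that for the phosphofructokinases -0.52, so that the pairs cannot be called alike.

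**Figure D4:**
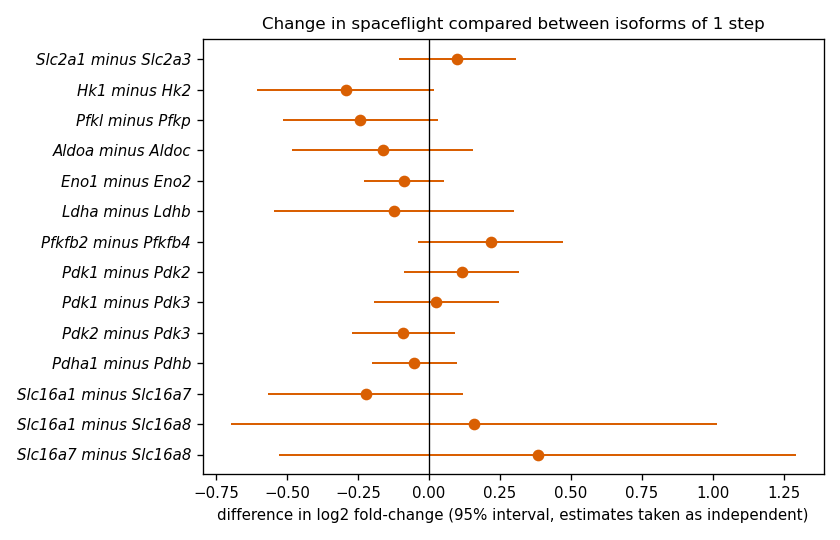
Difference between the log2 fold-changes of genes of 1 family (x axis, first gene minus second, 95% interval) for the 14 pairs of tested members. Every interval holds 0, and those of Hk1 minus Hk2 and Pfkl minus Pfkp come nearest to leaving it out.

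Genes of the neighbouring pathways were followed in the same comparison. Of 69 further symbols in 7 groups, 66 had a row and 38 were tested. Among these, 2 were DEGs, both lower in spaceflight. Of all tested genes, 5.62% were DEGs, 2.94% lower and 2.68% higher in spaceflight. Against that background, no DEG higher in spaceflight among 38 genes is no result. The log2 fold-change was positive for 14 and negative for 24, with a median of -0.03.

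Hkdc1, a further hexokinase, fell by 31.5% (log2 fold-change -0.55 ± 0.14, interval -0.81 to -0.28; DESeq2, adjusted p-value = 0.00396). Its mean normalized count was 98.8, against 7565 for Hk2. Nxnl1, which encodes the rod-derived cone viability factor that is known to bind basigin and raise glucose uptake in cones, fell by 10.5% (log2 fold-change -0.16 ± 0.05; DESeq2, adjusted p-value = 0.0219), at a count of 2267. The study's text names alternative splicing of Nxnl1, which had 1 counted transcript here, so its splice forms were not told apart. Its relative Nxnl2 was at 0.12 ± 0.05, which did not pass (DESeq2, adjusted p-value = 0.224).

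The remaining groups held no DEG in DESeq2. The pentose phosphate branch, which makes NADPH from glucose-6-phosphate, had 8 tested genes with log2 fold-changes from -0.16 to 0.11, and none had an unadjusted p-value under 0.05. The 7 tested genes of the shuttles that carry the NADH of glycolysis into mitochondria ranged from -0.08 to 0.10, also with none under 0.05. The 4 tested genes of mitochondrial pyruvate entry, among them both carriers under their older symbols Brp44l and Brp44, ranged from -0.02 to 0.13, with none under 0.05. The 4 other sugar and monocarboxylate transporters that were tested ranged from -0.19 to -0.07, with none under 0.05. Of 11 tested genes of glycogen and gluconeogenesis 1, Ugp2, had an unadjusted p-value under 0.05, with a log2 fold-change of 0.18.

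**Figure D5:**
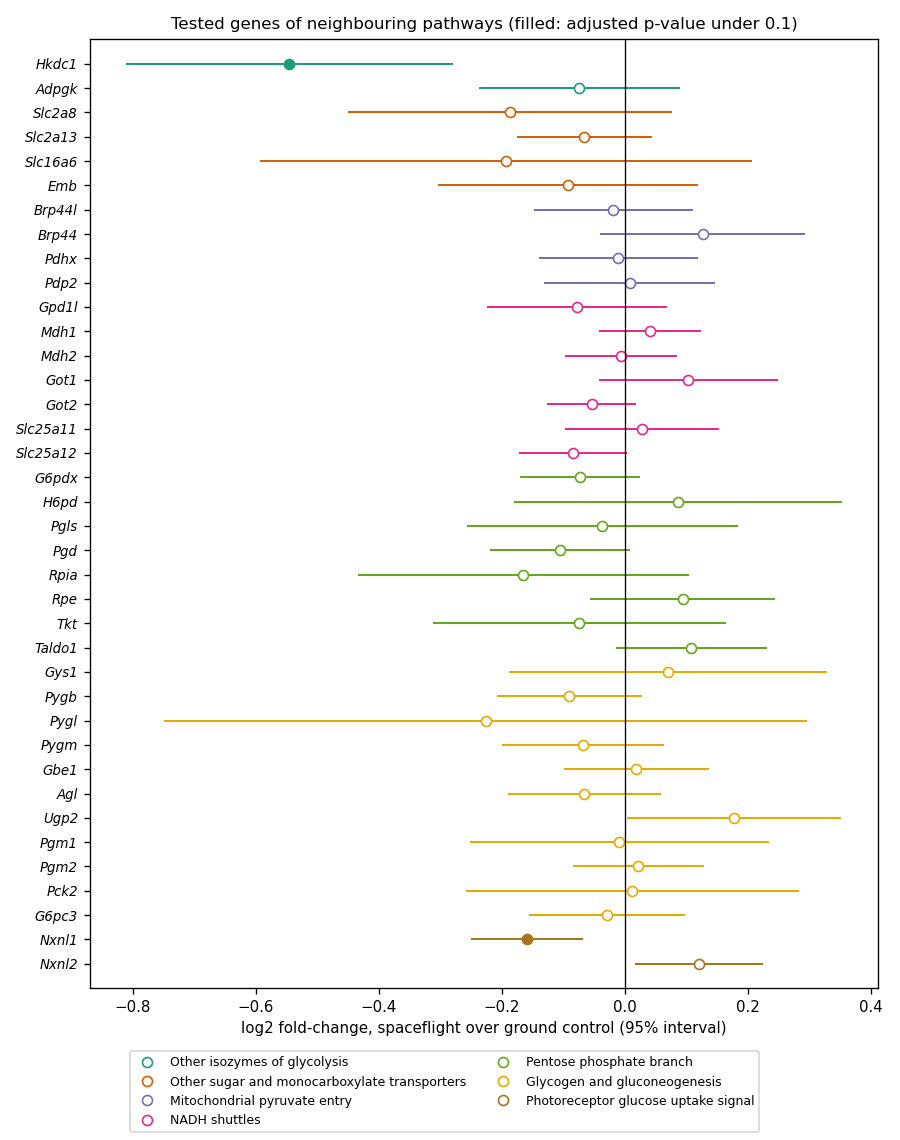
Log2 fold-change, spaceflight relative to ground control (x axis, 95% interval), for the 38 tested genes of 7 neighbouring groups, coloured by group. The filled points, Hkdc1 and Nxnl1, are the DEGs, and both lie below 0.

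The tissue was checked by the markers of its cells, rods first. Of all tested genes, 5.62% were DEGs and 2.94% were DEGs lower in spaceflight. All 10 rod markers were tested. Of them 2 were DEGs, both lower in spaceflight, Sag at -0.66 and Pde6b at -0.14, and the median over the list was -0.04. Of 6 tested cone markers 1 was a DEG, Arr3 at -0.31, and of 8 tested Müller glia markers 1, Dkk3 at -0.22, both lower in spaceflight. Arr3 did not stand for its list: 4 cone markers had a positive and 2 a negative log2 fold-change, with a median of 0.08. Müller glia markers were positive for 2 and negative for 6, with a median of -0.03. The part of these cells in the changes of Hk2, Pfkp and Pgk1 was not tested.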

How the data were processed

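Retinal RNA of 8 spaceflight and 8 ground control mice was sequenced from stranded libraries of 100 ng of total RNA, as single-end reads. Per the labels, the authors trimmed reads with Trimmomatic, mapped them with TopHat2 and counted them with HTSeq. By the study's methods, mapping was to an NCBI mouse build older than GRCm38, so the promoters, lengths and GC contents used here come from another build and were joined by symbol or accession, never by position. Rows of the count tables are RefSeq transcripts, and only their accessions and symbols (other text columns) were read. The 32 columns of counts in 2 tables carry laboratory codes that the labels do not tie to a mouse and were left out, so depth per library, spread between mice and fits without a library are not analysed here.

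The authors compared the groups with DESeq2 1.22.2 in R 3.5.1 on raw counts. From the authors' deposited table of all genes were taken the signal (mean of counts over size factors), the log2 fold-change and its SE on a log2 scale, the score (Wald statistic) and the p-values. Adjusted p-values recomputed by the Benjamini-Hochberg method differed by at most 4.26e-06. The direction, positive where spaceflight is higher, is that of the study's text.

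Every member is named with its values, and every gene of the neighbouring groups past the threshold. Genes just outside it, markers and Tigar's older row were named after their values were seen. Members and lists were chosen with earlier results of these data known. Transcript length and GC content came from GENCODE M21, through the counted accession or the symbol, for 10348 tested genes and all 32 tested members. For the alternative without this trend, the part explained by natural splines (4 knots each, robust and weighted) was subtracted. The adjustment of p-values and the removal of the trend were also run on simulated data with random seed 1. Errors there were independent normal draws from the deposited SE, and no result given here rests on these runs. The software was Python 3.11.15 with scipy 1.17.1, matplotlib 3.10.9, pandas 2.3.3 and numpy 2.4.6.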

Additional observations from a re-analysis of the deposited data

How the results depend on the processing

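The 3 DEGs among the members, Hk2, Pfkp and Pgk1, were called under a stricter limit of 0.05, without the abundance filter, with a minimum mean normalized count of 100 and after a GC and length trend was taken out. At 0.01, and with the Wald statistics divided by their central spread over all tested genes, 1 member passed, Hk2 both times. When a change had to exceed 1.1-fold, 0 members passed after adjustment over all tested genes. For the neighbouring groups the count went from 2 to 1 at 0.01 (Hkdc1) and with the minimum count (Nxnl1), and to 0 with the divided Wald statistics and in the 1.1-fold test. The share of all tested genes called under these alternatives is not given here, so neither drop can be set against it. With the trend removed, 3 log2 fold-changes near 0 changed sign, to 0.0049 for Aldoc, 0.016 for Pdk2 and -0.0086 for Dld, and the other 29 kept theirs. The cause was not tested. The median over the tested members was 0.04, and 0.05 to 0.06 under the alternatives, among them the members with 1 counted transcript, chosen after seeing the data. The interval of the difference held 0 in all 14 pairs with and without the trend. Abundance per kb rests on the transcript chosen: by the longest transcript, Slc16a7 fell from 19.7 to 4.34, Pfkp from 1148 to 548, and Slc2a3, Aldoc, Pfkfb1 and Pdhb also moved by over 1.5 times. No paired analysis was possible because the columns of counts carry no number that the labels share; the edgeR fit with the replicate number as a block was not run. Precision is limited by the deposited SE.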
